A study of Rattus norvegicus with 6 samples.

Results

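miR-9a, miR-124, miR-128, miR-137 and miR-138 are 5 miRNA families that are enriched in neural tissue. Their mature arms were taken from the count table by name, with any arm suffix and including arms numbered by precursor, which gave 12 of the 753 listed miRNAs. Small RNA was sequenced on day 14 from the lumbar spinal cord of 3 rats with bone cancer pain (BCP) and 3 sham-operated rats, with 1 library per rat. In the BCP rats, living Walker 256 breast carcinoma cells were injected into the medullary cavity of the left tibia, and the sham-operated rats received heat-killed cells of the same line, so that both groups had bone surgery and an injection of tumor cell material. The tissue was the lumbar enlargement on the side of the injected tibia, without meninges. The labels give the strain as Wistar, the paper's methods give female Sprague Dawley rats, and neither states an age. The libraries held between 13464349 and 23770677 counts, and the 3 counts that a count of 0 allows correspond to between 0.126 and 0.223 CPM, which are reads scaled to a common library size of 1e+06. All 12 arms had at least 24 counts in every library and passed the filter on low counts, and 459 miRNAs were tested in all.

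A miRNA is cut from a hairpin precursor as a duplex of a 5p and a 3p arm, and usually one arm is kept as the guide that directs Argonaute to target mRNAs, mainly by pairing with its seed at bases 2 to 8. miR-9 acts in neural progenitors and in the timing of neurogenesis. miR-124 is a hallmark of differentiated neurons and represses non-neuronal transcripts, whereas miR-128 is known for restraining neuronal excitability, miR-137 for its link to synaptic function and neuronal maturation, and miR-138 for the control of dendritic spine size. Since a piece of cord with mixed cells was sequenced, fewer cells of a type and less RNA per cell cannot be told apart in the values below.

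RefSeq (build GRCr8) held a mature sequence for 10 of the 12 arms. The arms below are shown because the results turn on them, first the more counted arms and miR-9a-3p, with the seed in capitals and in the 5′ to 3′ direction. The prefix rno of the count table, for the rat, is left out elsewhere.
rno-miR-9a-5p: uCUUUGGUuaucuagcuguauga
rno-miR-9a-3p: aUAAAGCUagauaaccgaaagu
rno-miR-128-3p: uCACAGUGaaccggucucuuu
rno-miR-137-3p: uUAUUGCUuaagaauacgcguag
rno-miR-138-5p: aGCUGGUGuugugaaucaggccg
These 5 arms had 5 different seeds, and no other miRNA of the count table with a RefSeq sequence had the seed of any of them. Both miR-9a arms are encoded identically by 3 genes, Mir9-1, Mir9-2 and Mir9-3, and miR-128-3p and miR-138-5p by 2 genes each, so their counts are sums over gene copies. miR-128-3p begins with UCACAGUG, a stretch that lies at bases 2 to 9 of miR-27a-3p and miR-27b-3p, so the seeds of these families overlap with a shift of 1 base. miR-27a-3p, singled out after its values were seen, was called higher in the BCP group, with a log2 fold change of 0.92 and an adjusted p of 0.0228 in edgeR, whereas miR-27b-3p had 0.10 with an adjusted p of 0.747.

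The less counted arms of miR-128 and miR-138 differ between gene copies and are shown because they tell the copies apart.
rno-miR-128-1-5p: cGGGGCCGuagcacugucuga
rno-miR-128-2-5p: gGGGGCCGaugcacuguaaga
rno-miR-138-1-3p: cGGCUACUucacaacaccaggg
rno-miR-138-2-3p: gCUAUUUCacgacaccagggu
The miR-128 pair shared its seed and differed at 5 of 21 bases, which were C1G, U9A, A10U, C18A and U19A with positions counted from the 5′ end of miR-128-1-5p. The miR-138 pair differed at 2 of 20 aligned bases, C7U and A13G counted from the 5′ end of miR-138-1-3p, and started 2 bases apart, so that their seeds were different. How reads that match several miRNAs were counted is not given in the sources used here, and values of the miR-138 pair are uncertain to that extent. In the RefSeq annotation, Mir128-1 lies within R3hdm1 and Mir128-2 within Arpp21, and both are protein-coding genes.

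The 12 arms together made up between 12.8% and 13.9% of each library. miR-9a-5p ranked 2 and miR-128-3p ranked 5 by mean level among all 753 listed miRNAs, and the miR-9a and miR-128 families held 52.6% and 45.1% of the summed level of the 12 arms. The miR-124 family held 2.12%, miR-138 held 0.260% and miR-137 held 0.0119%. The number of reads of a miRNA does not grow with its length, so levels were compared without a division by length. Ligation in library preparation favors some ends over others, and no standard of known amount is in the table, so the order of levels is an order of reads.

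For miR-9a-5p, the normalised level was 64627, 71924 and 75733 CPM in BCP rats 1, 2 and 3, and 66254, 57663 and 63749 CPM in sham-operated rats 1, 2 and 3. miR-128-3p was measured at 60625, 51319 and 57883 CPM in the BCP rats, compared with 64502, 67418 and 54586 CPM in the sham-operated rats. The groups overlapped for both of these miRNAs, and the range of miR-9a-5p overlapped that of miR-128-3p, with miR-9a-5p the higher in 5 of 6 libraries. miR-124-3p (rno-miR-124-3p) followed at a mean of 2726 CPM, 21.8-fold below miR-128-3p. Its levels were 2729, 2605 and 2762 CPM in the BCP rats, compared with 2757, 2789 and 2711 CPM in the sham-operated rats. It was the most even of the 12 arms, with the highest library only 1.07-fold above the lowest.

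miR-9a-3p, the arm opposite miR-9a-5p, had nearly the same mean as miR-124-3p but a far wider range, with 1862, 3107 and 3863 CPM in the BCP rats, compared with 2070, 1396 and 3442 CPM in the sham-operated rats. BCP rats 2 and 3 and sham-operated rat 3 were high, and BCP rat 1 and sham-operated rats 1 and 2 were low, so the groups overlapped. miR-138-5p was lower again, at 288, 276 and 299 CPM in the BCP rats, compared with 323, 303 and 315 CPM in the sham-operated rats. The groups did not overlap for miR-138-5p, but the gap was small, since the highest BCP rat and the lowest sham-operated rat were at 298.8 and 303.4 CPM. miR-124-5p lay at 75.9, 77.8 and 76.1 CPM in the BCP rats, compared with 68.3, 63.7 and 79.2 CPM in the sham-operated rats, with the groups overlapping.

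The remaining 6 arms had mean levels from 2.45 to 24.5 CPM. miR-138-2-3p was at 23.7, 20.0 and 20.7 CPM in the BCP rats, compared with 31.1, 30.1 and 21.1 CPM in the sham-operated rats, and sham-operated rat 3 fell among the BCP rats. miR-138-1-3p was at 14.1, 14.95 and 14.3 CPM in the BCP rats, compared with 19.9, 23.2 and 17.1 CPM in the sham-operated rats, so each BCP rat lay below each sham-operated rat. miR-137-3p, the more counted arm of a miRNA known from the brain, was rare here, at 8.95, 15.98 and 19.4 CPM in the BCP rats, compared with 9.52, 6.97 and 18.8 CPM in the sham-operated rats. It was high and low in the same rats as miR-9a-3p. miR-128-2-5p, miR-128-1-5p and miR-137-5p had mean levels of 4.88, 2.47 and 2.45 CPM, with overlapping groups. In the order of mean levels, neighbouring arms whose ranges overlapped were miR-9a-5p and miR-128-3p, miR-124-3p and miR-9a-3p, miR-138-2-3p and miR-138-1-3p, miR-138-1-3p and miR-137-3p, and miR-128-1-5p and miR-137-5p. The ranges of the other neighbours did not overlap.

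**Figure D1:**
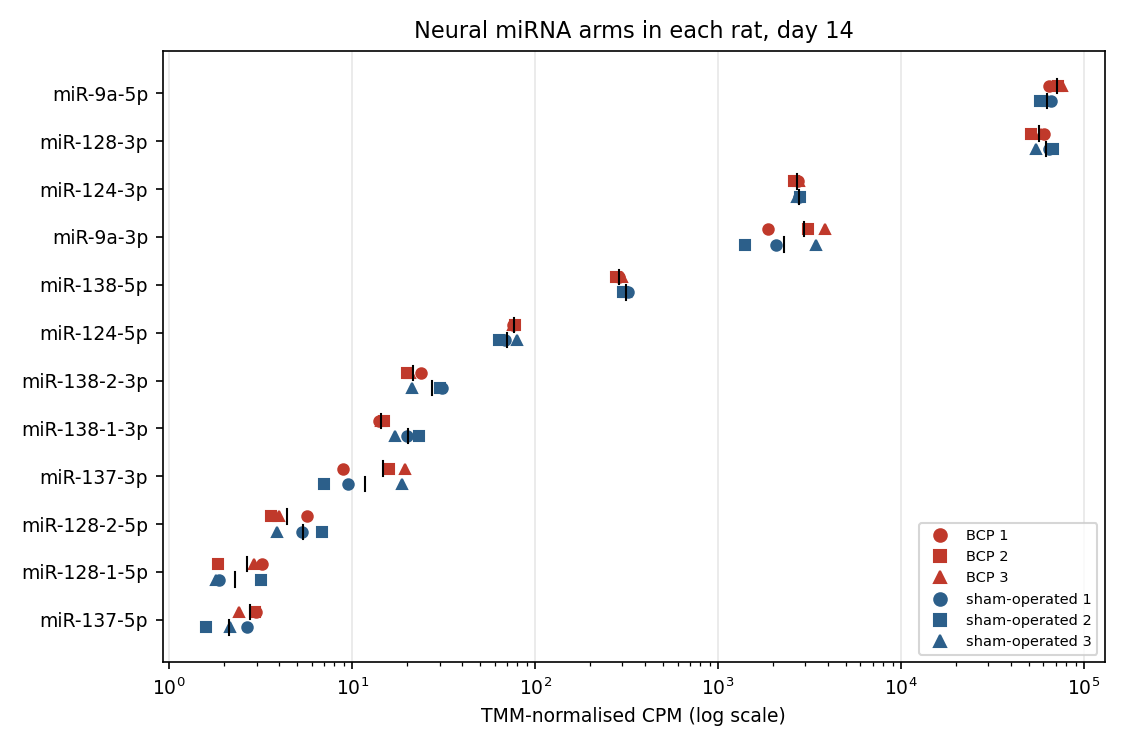
Normalised level of the 12 arms in each rat, in CPM on a log axis, with red symbols for BCP rats, blue symbols for sham-operated rats and a vertical bar at each group mean. The levels run from 66658 CPM on average for miR-9a-5p down to 2.45 CPM for miR-137-5p, and the symbols of miR-9a-3p and miR-137-3p are the most widely scattered.

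Whether these miRNAs differed between BCP and sham-operated rats was tested with edgeR's quasi-likelihood test over all 459 miRNAs. None of the 12 arms passed an absolute log2 fold change above 0.8 with an adjusted p below 0.05, where the test called 3.49% of all tested miRNAs. At an unadjusted p below 0.05 there was 1 arm, miR-138-1-3p, where 13.1% of all tested miRNAs reached that level. DESeq2, limma-voom and edgeR's likelihood ratio test also called 0 of the 12, where they called 4.14%, 3.49% and 5.45% of the same 459 miRNAs. The log2 fold changes lay between -0.47 and 0.39, with 6 above and 6 below 0, and their median was 0.046, against -0.0034 over all tested miRNAs. For 2 of the 12 arms the groups were fully parted, where this held for 18.5% of all tested miRNAs, and both, miR-138-5p and miR-138-1-3p, were lower in the BCP group, where the share of all tested miRNAs was 5.23%.

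The precision of the comparison differed between the arms. For miR-124-3p the log2 fold change was -0.03 with a standard error of 0.083, a 95% interval from -0.22 to 0.16 and an adjusted p of 0.935 in edgeR. Its mean was 2699 ± 82.9 CPM in the BCP group and 2753 ± 39.2 CPM in the sham-operated group (SD, n = 3 rats each). miR-9a-5p was at 70761 ± 5643 CPM against 62555 ± 4418 CPM (SD, n = 3 rats each), which gave a log2 fold change of 0.18 with an interval from -0.04 to 0.40 and an adjusted p of 0.506 in edgeR. For miR-128-3p, with 56609 ± 4782 CPM against 62169 ± 6727 CPM (SD, n = 3 rats each), the log2 fold change was -0.14 with an interval from -0.39 to 0.12 and an adjusted p of 0.660 in edgeR. It was -0.25 without sham-operated rat 3, with an unadjusted p of 0.0245 and an adjusted p of 0.129 in edgeR, -0.20 without BCP rat 1, -0.078 without sham-operated rat 2 and -0.067 without BCP rat 2. For 6 of the 12 arms, among them the major arms of miR-9a, miR-124, miR-128 and miR-138, the interval lay wholly within 0.8 on either side of 0. The intervals are for single miRNAs and are not adjusted for the number tested.

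The arms of miR-138 had negative log2 fold changes throughout. miR-138-1-3p was at 14.4 ± 0.453 CPM in the BCP group and 20.1 ± 3.02 CPM in the sham-operated group (SD, n = 3 rats each), and the log2 fold change was -0.47 with a standard error of 0.144, an interval from -0.81 to -0.14 and an adjusted p of 0.141 in edgeR. miR-138-2-3p had a log2 fold change of -0.35 with an interval from -0.75 to 0.05 and an adjusted p of 0.450 in edgeR. miR-138-5p, the guide arm of both gene copies, had a log2 fold change of -0.12 with an interval from -0.36 to 0.11 and an adjusted p of 0.662 in edgeR. When single rats were left out, the adjusted p of miR-138-1-3p ranged from 0.0535 to 0.405 in edgeR and its log2 fold change from -0.61 to -0.36. The log2 fold change of miR-138-2-3p ranged from -0.54 to -0.28, and its adjusted p was 0.0560 in edgeR without sham-operated rat 3.

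For miR-9a-3p and miR-137-3p the intervals were wide. miR-9a-3p had a log2 fold change of 0.35 with an interval from -0.46 to 1.17 and an adjusted p of 0.721 in edgeR, and miR-137-3p had 0.32 with an interval from -0.60 to 1.24 and an adjusted p of 0.785. Both values depended on single rats. Without sham-operated rat 3 the log2 fold changes were 0.73 for miR-9a-3p and 0.80 for miR-137-3p, without BCP rat 1 they were 0.58 and 0.57, without BCP rat 3 they were 0.097 and 0.058, and without sham-operated rat 2 they were 0.086 and 0.040, and none of these was called in edgeR. Differences of more than 2-fold toward the BCP group therefore remain within the intervals of both arms. For the low arms miR-128-1-5p, miR-128-2-5p and miR-137-5p, with as few as 25, 49 and 24 counts in a library, the log2 fold changes were 0.24, -0.26 and 0.39 and the intervals also reached beyond 0.8 on 1 side. When single rats were left out, the log2 fold change of miR-128-1-5p ranged from 0.050 without BCP rat 1 to 0.54 without sham-operated rat 2, that of miR-128-2-5p from -0.51 without BCP rat 1 to -0.046 without sham-operated rat 2, and that of miR-137-5p from 0.21 without sham-operated rat 2 to 0.55 without sham-operated rat 1.

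**Figure D2:**
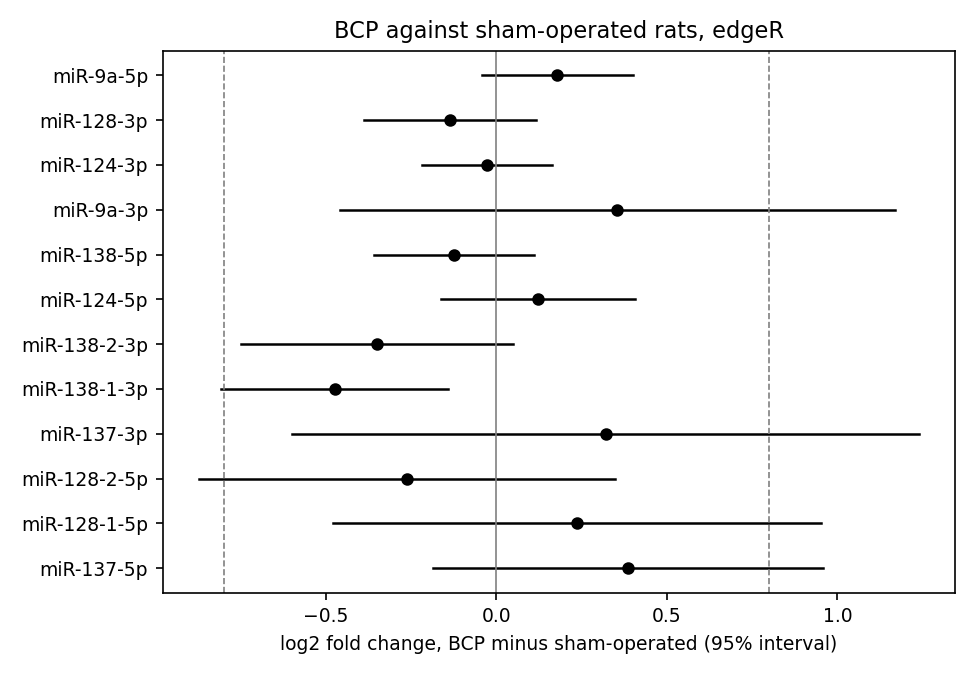
The log2 fold change of each of the 12 arms, BCP minus sham-operated, from edgeR (points) with its 95% interval (lines), and dashed lines at -0.8 and 0.8. All but 1 of the intervals cover 0, the exception being miR-138-1-3p at -0.47, and the intervals of miR-9a-3p and miR-137-3p are the widest.

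The sum of the 12 arms was likewise similar in both groups, at 13.3% ± 0.516 of the library in the BCP rats and 13.1% ± 0.209 in the sham-operated rats (SD, n = 3 rats each). The difference of 0.203 percentage points was smaller than the SD of the BCP rats (p = 0.8 in an exact permutation test, two-sided, which can reach 0.1 at best with 3 rats in each group). It turned to -0.0934 without BCP rat 3, and was 0.0817 without sham-operated rat 2 and 0.382 without BCP rat 1.

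The arms of each family were compared within each library, since their ratio does not depend on the scaling between libraries. The 3p arm was the more counted in miR-124, miR-128 and miR-137, and the 5p arm in miR-9a and miR-138, that is in 2 of 5 families, where the 5p arm was the more counted in 55.0% of all 169. miR-128 had the strongest preference, with miR-128-3p 6823, 9353 and 8358 times as frequent as both 5p arms together in the BCP rats, compared with 8903, 6722 and 9547 times in the sham-operated rats. Only 3 of the 169 families with both arms at a mean of at least 10 counts had a larger ratio. miR-124-3p was counted 36.0, 33.4 and 36.3 times as often as miR-124-5p in the BCP rats, compared with 40.3, 43.7 and 34.2 times as often in the sham-operated rats. miR-9a-5p was counted 34.7, 23.1 and 19.6 times as often as miR-9a-3p in the BCP rats, compared with 32.0, 41.3 and 18.5 times as often in the sham-operated rats, a 2.23-fold range that did not follow the groups. miR-138-5p exceeded its 3p arms 7.63, 7.88 and 8.52 times in the BCP rats, compared with 6.33, 5.69 and 8.22 times in the sham-operated rats. The lowest ratio was that of miR-137, in which the 3p arm was 3, 5.37 and 7.99 times as frequent as the 5p arm in the BCP rats, compared with 3.53, 4.35 and 8.66 times as frequent in the sham-operated rats.

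None of the 5 arm ratios differed between the groups in limma at an adjusted or an unadjusted p below 0.05. Over all 169 families limma called 0 at the adjusted level and 8, or 4.73%, at the unadjusted level. The largest difference in standard errors was that of miR-138, whose log2 ratio of 5p to 3p was higher by 0.26 in the BCP group, with an interval from -0.10 to 0.63 and an adjusted p of 0.789 in limma. For miR-124 the difference was 0.16 with an interval from -0.12 to 0.43, and for miR-128 it was 0.033 with an interval from -0.45 to 0.51. The sign for miR-128 turned to -0.092 without BCP rat 1, to -0.018 without sham-operated rat 1 and to -0.068 without sham-operated rat 3. Without sham-operated rat 3 the differences of miR-138 and miR-124 were 0.42 and 0.25, with unadjusted p of 0.0106 and 0.0478 and adjusted p of 0.207 and 0.232 in limma, and without sham-operated rat 2 they were 0.15 and 0.077. The ratios of miR-9a and miR-137 had wider intervals, from -1.02 to 0.59 and from -1.12 to 1.15, and their signs also turned, for miR-9a without sham-operated rat 2 and for miR-137 without BCP rat 1 or sham-operated rat 3. The groups overlapped for all 5 families, where 11.2% of all families did not overlap.

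**Figure D3:**
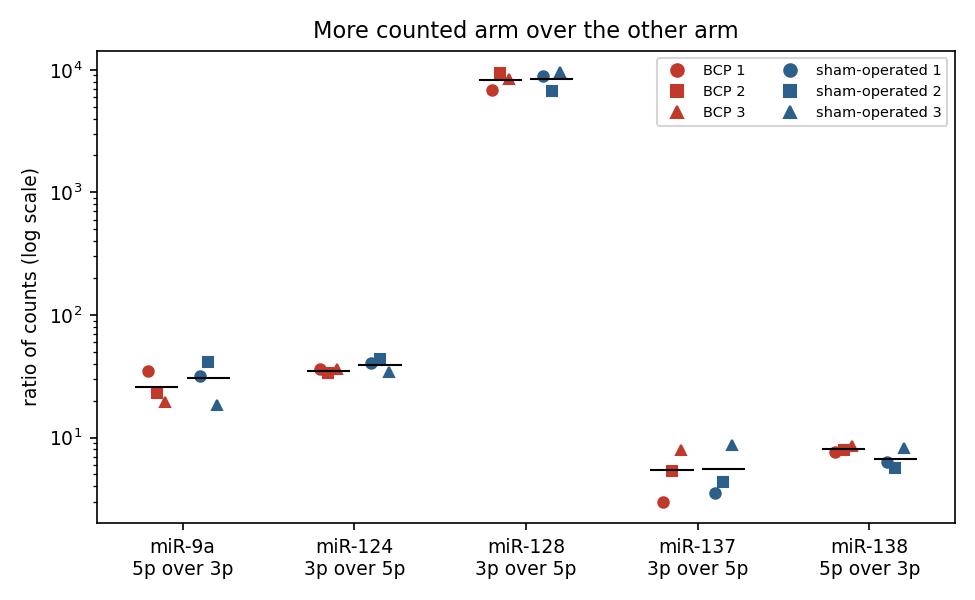
Ratio of the more counted arm to the other arm in each rat for the 5 families, on a log axis, with red symbols for BCP rats, blue symbols for sham-operated rats and a horizontal bar at each group mean. miR-128 lies between 6722 and 9547 in all rats, whereas miR-9a and miR-137 vary more than 2-fold within each group apart from the BCP rats of miR-9a, whose ratios run from 19.6 to 34.7.

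The gene copies were compared through the arms that differ between them. miR-128-2-5p had more counts than miR-128-1-5p in all 6 libraries. In the BCP rats miR-128-1-5p made up 36.4%, 33.8% and 42.2% of the pair, with exact 95% binomial intervals from 29.8% to 43.3%, from 23.2% to 45.7% and from 32.8% to 52.04%. In the sham-operated rats it made up 26.0%, 31.6% and 31.8%, with intervals from 17.7% to 35.7%, from 24.3% to 39.6% and from 22.1% to 42.8%. The BCP rats all lay above the sham-operated rats, with means of 37.4% ± 4.31 and 29.8% ± 3.28 (SD, n = 3 rats each), but the intervals of single rats overlapped between the groups, and an exact permutation test (two-sided) gave p = 0.1, which is as low as this design can reach. Such intervals cover counting error only and leave out variation between rats. Reads were not marked by molecular identifiers, so the intervals may be too narrow even for counting.

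For miR-138, the copy-specific arms were closer in number. miR-138-1-3p made up 37.3%, 42.7% and 40.8% of the pair in the BCP rats, compared with 39.0%, 43.5% and 44.8% in the sham-operated rats, so that miR-138-2-3p was the more counted in all 6 libraries. The groups overlapped, and the means of 40.3% ± 2.75 and 42.4% ± 2.997 (SD, n = 3 rats each) differed by less than their SDs (p = 0.4 in a two-sided exact permutation test). The log2 ratio of the copies differed by -0.13, by -0.037 without BCP rat 1, by -0.058 without sham-operated rat 3, by -0.20 without BCP rat 2 and by -0.23 without sham-operated rat 1.

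The spread between rats of the same group was described by the SD of log2(CPM + 1), pooled over the 2 groups. Across all tested miRNAs its median was 0.182. miR-124-3p had 0.035 and miR-138-5p 0.051, which lay at percentiles 0.436 and 3.05 of all tested miRNAs. miR-9a-5p and miR-128-3p had 0.110 and 0.144, also below the median. At the other end, miR-137-3p and miR-9a-3p had 0.609 and 0.599, at percentiles 98.7 and 98.5. Among the 74 miRNAs with a mean of at least 1000 CPM, none had a larger spread than miR-9a-3p, whose lowest library held 21224 counts. miR-137-3p had at least 106 counts in each library. The coefficients of variation of miR-137-3p were 36.1% in the BCP group and 52.9% in the sham-operated group.

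**Figure D4:**
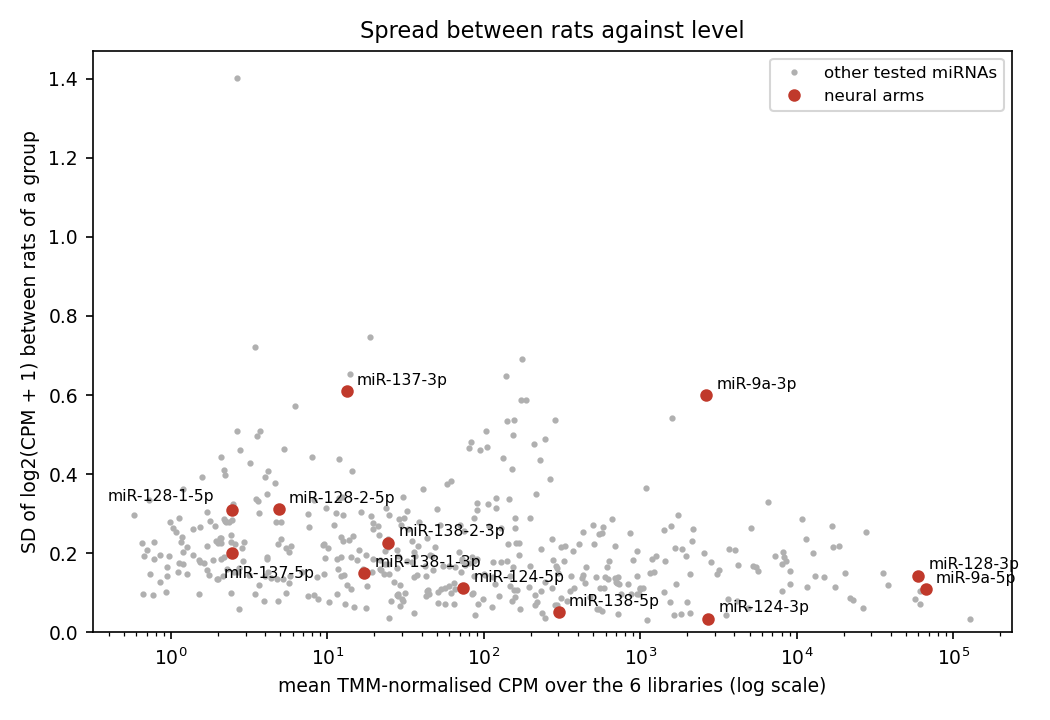
Spread between rats of a group, as the SD of log2(CPM + 1), against the mean level in CPM on a log axis, with the 12 arms in red and all other tested miRNAs in grey. miR-124-3p lies near the bottom at 0.035, whereas miR-9a-3p lies at 0.599, above every other miRNA with at least 1000 CPM, although their means were close, at 2726 and 2623 CPM.

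miR-9a-3p and miR-137-3p, which come from different genes and have different seeds, put the 6 libraries in the same order, from BCP rat 3 over sham-operated rat 3, BCP rat 2, sham-operated rat 1 and BCP rat 1 to sham-operated rat 2. miR-9a-5p, the other product of the miR-9a hairpins, ran from BCP rat 3 over BCP rat 2, sham-operated rat 1, BCP rat 1 and sham-operated rat 3 to sham-operated rat 2. The base composition of the miRNAs moved with this order. Relative to its mean over the libraries, the level of the 49 tested miRNAs with at most 38% G and C was, in the median, 0.37, 0.24 and 0.19 higher on the log2 scale in BCP rat 3, sham-operated rat 3 and BCP rat 2, and fell by 0.11, 0.25 and 0.42 in sham-operated rat 1, BCP rat 1 and sham-operated rat 2. The 66 miRNAs with more than 60% moved the other way, from -0.17 in BCP rat 3 to 0.21 in sham-operated rat 2. miR-9a-3p has 31.8% G and C and miR-137-3p 34.8%, and at most 7.26% of the tested miRNAs with a sequence have as little.

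Low GC content did not always go with a wide spread, since miR-9a-5p has 34.8% as well. Whether base composition caused the spread of miR-9a-3p and miR-137-3p was not tested. When the dependence of the level on GC content was fitted in each library and subtracted, over the 427 tested miRNAs with a sequence, the spread of miR-9a-3p went from 0.599 to 0.221 and that of miR-137-3p from 0.609 to 0.325, whereas that of miR-9a-5p went from 0.110 to 0.210. The median over these miRNAs went from 0.182 to 0.164. miR-9a-3p and miR-137-3p were among the fitted miRNAs, and the fit was made after they were seen to follow the low-GC class. A fall in their spread was therefore built in. In edgeR with this dependence as an offset, which could not include the miR-124 arms, the log2 fold change of miR-9a-3p was 0.12 with an interval from -0.22 to 0.47, that of miR-137-3p was 0.13 with an interval from -0.43 to 0.68, and that of miR-9a-5p was -0.05 with an interval from -0.38 to 0.29, a change of sign. miR-138-1-3p had a log2 fold change of -0.40 and an adjusted p of 0.0844, and miR-138-2-3p had -0.33 with an interval from -0.64 to -0.013 and an adjusted p of 0.270. None of the 10 arms was called, where this fit called 4.68% of the 427 miRNAs. The offset was fitted without regard to group, and low-GC miRNAs were high in more of the BCP rats than of the sham-operated rats. It can therefore also remove part of a group difference of low-GC arms. How much of the change in their log2 fold changes came from this was not tested.

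A further fit, also chosen after the data were seen, left out BCP rat 1 and sham-operated rat 3 together, because the low-GC miRNAs set each of them apart from the other rats of its group. In edgeR on the remaining 4 libraries, 2 of the 12 arms were called, both higher in the BCP group, where 11.7% of all tested miRNAs were called. They were miR-9a-3p, with a log2 fold change of 0.998 and an adjusted p of 0.00882, and miR-137-3p, with 1.10 and an adjusted p of 0.00879. Both arms were low in BCP rat 1 and high in sham-operated rat 3, and these 2 rats made the groups overlap. Leaving them out parted the groups by the choice itself, so the 2 calls are no support for a difference. In the same fit 4 arms had an adjusted p below 0.05 with log2 fold changes within 0.8 of 0, all lower in the BCP group, namely miR-138-2-3p with -0.60, miR-138-1-3p with -0.57, miR-128-2-5p with -0.69 and miR-128-3p with -0.28, at adjusted p of 0.0151, 0.0244, 0.0449 and 0.0462 in edgeR. The 11.7% is for both thresholds together. A share of all tested miRNAs at an adjusted p below 0.05 alone was not computed, here or with the GC offset. The number of arms below 0.05 therefore does not set them apart from other miRNAs. With the GC offset in the same 4 libraries, the log2 fold changes of miR-9a-3p and miR-137-3p were 0.37 and 0.59 with adjusted p of 0.00660 and 0.00763. The log2 fold changes of miR-138-2-3p, miR-128-3p, miR-9a-5p and miR-138-1-3p were -0.50, -0.29, -0.27 and -0.38 in that fit, with adjusted p of 0.00528, 0.0222, 0.0276 and 0.0422, whereas miR-128-2-5p had -0.45 with an adjusted p of 0.131. None of the 10 arms was called with the offset, where 7.44% of all tested miRNAs were. The low-GC miRNAs were high in both remaining BCP rats and low in both remaining sham-operated rats, so base composition and group cannot be told apart in these libraries, and p-values from libraries picked by a measured pattern do not have their usual meaning.

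**Figure D5:**
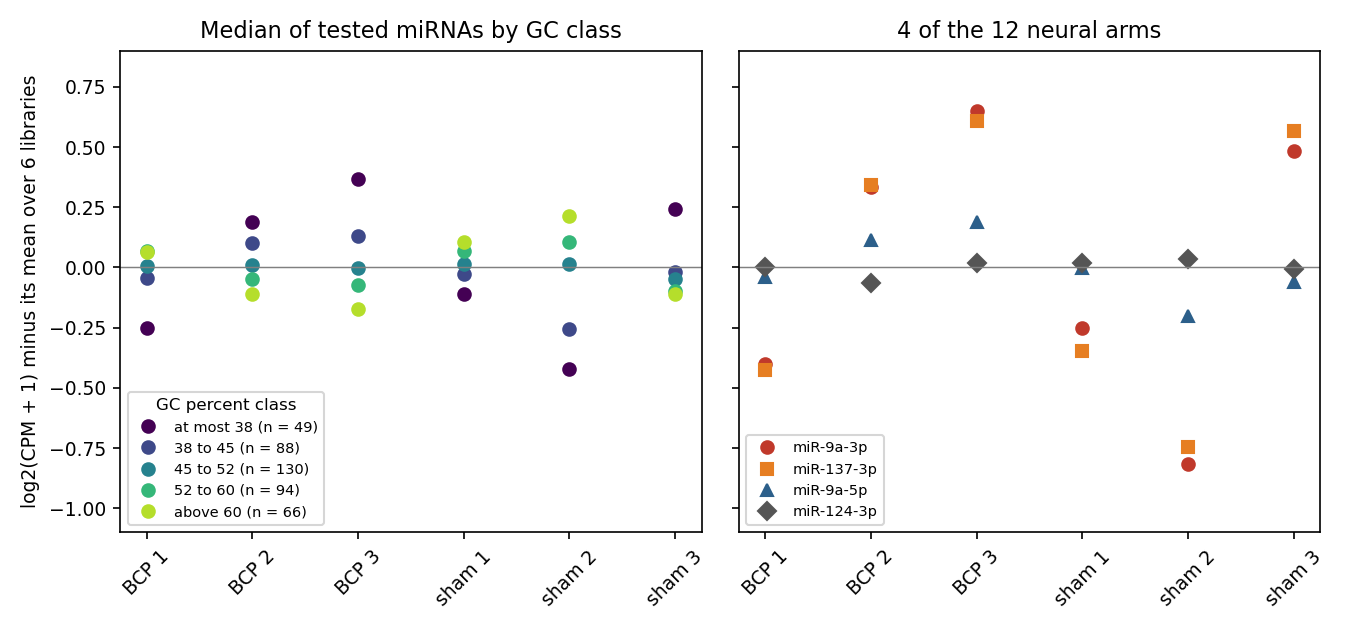
Level in each library as log2(CPM + 1) minus its mean over the 6 libraries. The left panel shows the median of the tested miRNAs in 5 classes of GC content, which fan out in opposite orders in BCP rat 3 and sham-operated rat 2, and the right panel shows 4 of the 12 arms, where miR-9a-3p and miR-137-3p follow the class with at most 38% G and C and miR-124-3p stays within 0.1 of 0.

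Markers of other cells that the tissue could hold were read in the same libraries, and their calls stand beside the 3.49% called over all tested miRNAs, each of which was higher in the BCP group. The 6 arms of miR-219 and miR-338, which are enriched in oligodendrocytes, summed to between 17713 and 20970 CPM in the BCP rats and between 19366 and 23846 CPM in the sham-operated rats, and 0 of 6 were called. miR-126a, enriched in endothelium, summed to between 13530 and 20260 CPM in the BCP rats and between 14240 and 19845 CPM in the sham-operated rats. Its sum put the libraries in the order of miR-9a-3p and miR-137-3p, except that BCP rat 1 and sham-operated rat 2, the lowest for all of them, changed places. The skeletal muscle miRNAs miR-1, miR-133 and miR-206 stayed between 97.8 and 120 CPM, and the miR-96, miR-182 and miR-183 arms of sensory ganglia between 1894 and 2295 CPM over all rats. The choroid plexus and ciliated cell list was at between 4117 and 5470 CPM, with 0 of 11 called and a median log2 fold change of -0.10. Of the 11, 1 was above 0, where 49% of all tested miRNAs were. The groups did not overlap for 2 of the 11, where 18.5% of all tested miRNAs did not. In this list miR-448-5p was lowest, at -0.83 with an adjusted p of 0.0520 in edgeR, and miR-449a-5p was highest, at 0.88 with an adjusted p of 0.286. The 4 listed erythroid arms, of miR-144 and miR-451, were listed at 0 in every library, for a reason that is not known, so that they do not show whether blood was present. Of 6 tested myeloid and lymphoid arms, 2 were called higher in the BCP group, the arms of miR-223, with log2 fold changes of 2.46 and 2.13, while the sum over the list was between 1686 and 2130 CPM in the BCP rats and between 1651 and 2203 CPM in the sham-operated rats. The part of any of these cells in the values of the 12 arms was not tested.

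Other neural-enriched miRNAs were read in the same fit. From a list of 16 further families with 32 listed arms, 28 arms were tested and 0 were called in either direction, where 3.49% of all tested miRNAs were called, with log2 fold changes from -0.30 for miR-212-5p to 0.66 for miR-7a-1-3p and a median of -0.12. miR-7a-1-3p had an adjusted p of 0.114 in edgeR. The groups did not overlap for 2 of the 28, where 18.5% of all tested miRNAs did not. The 4 arms of miR-132 and miR-212, which neurons induce on activity, all had negative log2 fold changes, from -0.30 to -0.13, with adjusted p from 0.457 to 0.692 in edgeR and overlapping groups.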

How the data were processed

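Raw read counts per known mature miRNA, as deposited by the authors without normalization, were taken for 1 library per rat. According to the paper and the submitters' processing notes, reads were filtered with the FASTX Toolkit, clean reads were mapped to Rnor_6.0 with Bowtie 2.2.3 and known miRNAs were identified by length and miRBase annotation. Differences were tested with edgeR 4.0.16 in R 4.3.3 (filterByExpr with a minimum count of 10, TMM, quasi-likelihood test, Benjamini-Hochberg adjustment over all tested miRNAs, thresholds of 0.8 and 0.05), limma 3.58.1 and DESeq2 1.42.0. Normalised CPM are counts scaled to a library size of 1e+06 after multiplying each total by its TMM factor. Standard errors come from the log2 fold change and the F statistic. Arm ratios were log2((5p + 0.5)/(3p + 0.5)), with arms of numbered precursors summed, tested with limma over all families with a mean of at least 10 counts in both arms. Scripts were tested on simulated data. Every arm of the 5 families is described; outside them, miRNAs were named for a shared or near-identical sequence, as the lowest or highest of a list, as the nearest in profile, or, for miR-223-3p, as the other of 2 arms called in a list, after its value was seen.

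Libraries of a group are taken as separate rats, as the study states. The families and lists were chosen with earlier results of these data known. The GC offset and the fits without BCP rat 1 and sham-operated rat 3 together were chosen after seeing the data. Coordinates are not given, because the sequences come from another assembly than the authors' mapping.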

Additional observations from a re-analysis of the deposited data

How the results depend on the processing

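Leaving out BCP rat 1 and sham-operated rat 3 together, a choice made after the data were seen, called 2 of the 12 arms and 54 of 461 tested miRNAs, and 0 arms and 32 of 430 with the GC offset in addition. For the 2 arms called, miR-9a-3p and miR-137-3p, the choice itself parted the groups. None of the arms was called under the other settings run, with all 12 arms except under the GC offset, which had 10, namely no filter, at least 10 counts in every library, library totals, RLE factors, DESeq2, the likelihood ratio test, limma-voom, the replicate block (0 called), the GC offset and leaving out each rat. The median log2 fold change of the 12 arms, 0.046, was 0.0214 with RLE factors and with DESeq2 and -0.0593 with the GC offset over 10 arms, -0.0746 without that pair of rats and -0.123 without them and with the GC offset, and without a single rat it ranged from -0.0047 to 0.0554. Of 128 log2 fold changes of single arms under settings other than leaving out 1 rat, 4 changed sign, those of miR-9a-5p to -0.046 with the GC offset and to -0.27 with the GC offset and without the pair, of miR-138-5p to 0.022 in the latter fit and of miR-128-1-5p to -0.090 without the pair. Of 72 with 1 rat left out 0 changed sign and 0 were called, although values moved by more than 1.5 times. Beside those given above, that of miR-9a-5p was lowest at 0.12 without BCP rat 3, that of miR-124-5p ranged from 0.048 without sham-operated rat 2 to 0.18 without sham-operated rat 3, and that of miR-124-3p ranged from -0.071 without sham-operated rat 3 to -0.0012 without BCP rat 2. None of the 5 arm ratios was called under any setting, the replicate block included, and their differences without a rat ranged from -0.54 to 0.042 for miR-9a, from -0.092 to 0.18 for miR-128 from -0.37 to 0.35 for miR-137, from 0.077 to 0.25 for miR-124 and from 0.15 to 0.42 for miR-138, against -0.21, 0.033, 0.016, 0.16 and 0.26 with all rats. The summed share differed by -0.0934 to 0.382 percentage points without a rat, the lowest without BCP rat 3. The log2 ratio of the miR-128 copies, 0.49 higher in the BCP group, was between 0.35 and 0.60 higher without a rat. With a mean of at least 100 counts required in the lower arm, 4 of the 5 families were left. With the replicate block the median log2 fold change was 0.0491 and 18 of the 459 tested miRNAs were called instead of 16. The deviations from the group means of rats with the same number had correlations of 0.109, -0.452 and 0.711, so the numbers were taken as names that do not pair the rats. The adjusted p of miR-138-1-3p was 0.115 with the replicate block and between 0.0782 and 0.165 over the settings that kept all 6 libraries. Over all tested miRNAs the 16 calls became 25 with the likelihood ratio test, 8 without BCP rat 2, 10 without BCP rat 3 and 9 without sham-operated rat 1. The cause of these changes was not tested. Depth limits miR-128-1-5p, miR-128-2-5p and miR-137-5p, with fewer than 50 counts in at least 1 library.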

Other observations

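For the most counted arm of each family, the miRNAs with the most similar profile were sought among the other tested miRNAs, by the root mean square difference of the levels over the 6 libraries, on the log2(CPM + 1) scale and each centred on its own mean. miR-9a-5p was nearest to miR-598-3p and miR-26a-5p, at 0.0392 and 0.0409, where its own profile had a root mean square of 0.126. miR-128-3p was nearest to miR-337-5p and miR-132-3p, at 0.0383 and 0.0437, against 0.135 for its own profile. For miR-138-5p the nearest were miR-181d-5p and miR-154-5p, at 0.0327 and 0.0436, against 0.0750. miR-124-3p was so even over the libraries, with a root mean square of 0.0318, that its nearest miRNAs, miR-496-3p and miR-497-5p, were farther from it than a flat line would be, at 0.0391 and 0.0395.

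miR-137-3p was nearest to miR-499-5p and miR-136-3p, at 0.0664 and 0.0705, against 0.528 for its own profile. miR-9a-3p, chosen here after its values were seen, was also nearest to miR-499-5p, at 0.0583, and then to miR-369-3p, at 0.0690. These miRNAs have 33.3%, 40.9% and 23.81% G and C in the order miR-499-5p, miR-136-3p and miR-369-3p, below the median of 47.8% over the tested miRNAs with a sequence. miR-22-3p, also among the 4 nearest to miR-9a-3p at 0.0890, has 45.5%. With 6 libraries and so many miRNAs to choose from, some profiles lie close together in any such search, so the distances are a description.

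The miR-9b arms, which differ from the miR-9a arms at 2 bases in an ungapped alignment, were nearly without reads, with 28 counts for miR-9b-5p and 3 for miR-9b-3p over all 6 libraries.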
